A study of Mus musculus with 9 samples.

Results

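The Toll-like receptors and their co-receptors were followed through knockdown of Nus1 in BV2 cells. They are 10 of the 16398 genes of the deposited table, taken from the table by their symbols: the receptors Tlr1, Tlr2, Tlr3, Tlr4, Tlr6, Tlr7, Tlr9 and Tlr13, and the co-receptors Cd14 and Ly96. BV2 is an immortalised line of mouse microglia, the resident macrophages of the brain, so it stands for 1 cultured line and not for microglia in tissue. Nus1 encodes a subunit of the enzyme that makes dolichol, the lipid carrier on which N-glycans are assembled before transfer to proteins in the endoplasmic reticulum. The 3 groups of 3 libraries were a control named NC with the genotype given as WT, and cells given 1 of 2 knockdown agents against Nus1, named 644 and 878, with the genotype given as Nus1 knockdown. The protocol describes siRNA delivered with RNAiMAX for 24 h, then 24 h in fresh serum-containing medium, and RNA was profiled at 48 h. No receptor ligand or other immune stimulus is named for any group, and the sequence of the NC reagent is not given. The labels call the replicates biological without saying whether each was its own transfection, and p-values therefore reflect the spread among these 9 libraries alone.

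Toll-like receptors are membrane glycoproteins that bind conserved molecules of microbes through a horseshoe-shaped domain of leucine-rich repeats. TLR2 pairs with TLR1 or TLR6 at the cell surface to bind bacterial lipopeptides, and TLR4 binds lipopolysaccharide there together with MD-2 (encoded by Ly96), to which CD14 hands the ligand. TLR3, TLR7, TLR9 and TLR13 sit in endosomes and bind nucleic acids. Most signal through the adaptor MyD88 to NF-kB and interferon regulatory factors, and microglia use them to sense infection and tissue damage. The ectodomains carry many N-glycans, and CD14 is held in the membrane by a glycosylphosphatidylinositol anchor.

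The libraries held 19362331 to 20224707 estimated counts, and 11739 genes, all 10 receptors and co-receptors among them, passed the filter on low counts. Nus1 was at 50.1 to 53.4 CPM (counts scaled to a common library size after TMM correction) in control and 3.46 to 4.15 with 644. In replicates 1, 2 and 3 of 878 it was at 8.01, 3.73 and 8.35 CPM. The TMM factor, which corrects a library for its RNA composition, was 0.898 in replicate 2 of 878 and 0.966 to 1.041 in the other 8 libraries, so this library stood apart. Of 13 microglial markers, 12 reached 1 FPKM (the authors' unit, scaled by gene length and library size) on average in control, P2ry12 being the exception. With 644 the number was 12, and with 878 it was 11. The summed FPKM of the 13 was 2675 to 2884 in control, 2984 to 3042 with 644 and 2490 to 2857 with 878, and Cd68 alone averaged 1386 in control. The fractalkine receptor Cx3cr1 went down, from 24.8 ± 2.05 CPM to 3.93 ± 0.343 and 3.10 ± 0.0618 (SD, n = 3 each). Aif1 averaged 8.79 CPM in control, 5.73 with 644 and 3.94 with 878, and Trem2 241, 434 and 325. By edgeR at an adjusted p under 0.05, 1 of the 13 rose and 2 fell with 644, beside 16.6% and 15% of all tested genes. With 878, 2 rose and 4 fell, beside 16% and 15.5%. With 1 library left out, 1 to 9 were called with 644 and 3 to 7 with 878. Of 15 markers of neurons, astrocytes and other cell types, 12 were in the table and 0 reached 1 FPKM, with sums of 1.71 to 2.01, 1.61 to 2.18 and 1.11 to 1.47 FPKM in the 3 groups. RNA was taken from whole cultures, so fewer cells expressing a gene and less RNA per cell cannot be told apart.

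In control cells Cd14 had the highest level of the 10 genes, at 93.7 ± 4.20 FPKM (SD, n = 3), above 94% of the genes in the table. Tlr13 at 36.7 ± 3.37 FPKM and Tlr7 at 36.3 ± 4.70 followed, and their libraries overlapped. Below them, with no overlap between neighbours, came Tlr2 at 24.4 ± 2.00 FPKM, Ly96 at 9.40 ± 1.37, Tlr9 at 6.01 ± 1.33 and Tlr1 at 4.37 ± 0.195. Tlr4 at 3.52 ± 0.142 FPKM and Tlr6 at 3.40 ± 0.0950 overlapped each other, and Tlr3 was lowest at 1.63 ± 0.355, above 40.6% of genes. BV2 cells thus held far more mRNA per length for CD14 than for the receptor it serves. Tlr5, the receptor for flagellin, and Tlr8, a relative of TLR7, held 1 to 13 and 2 to 12 counts per library and were too low to test.

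**Figure D1:**
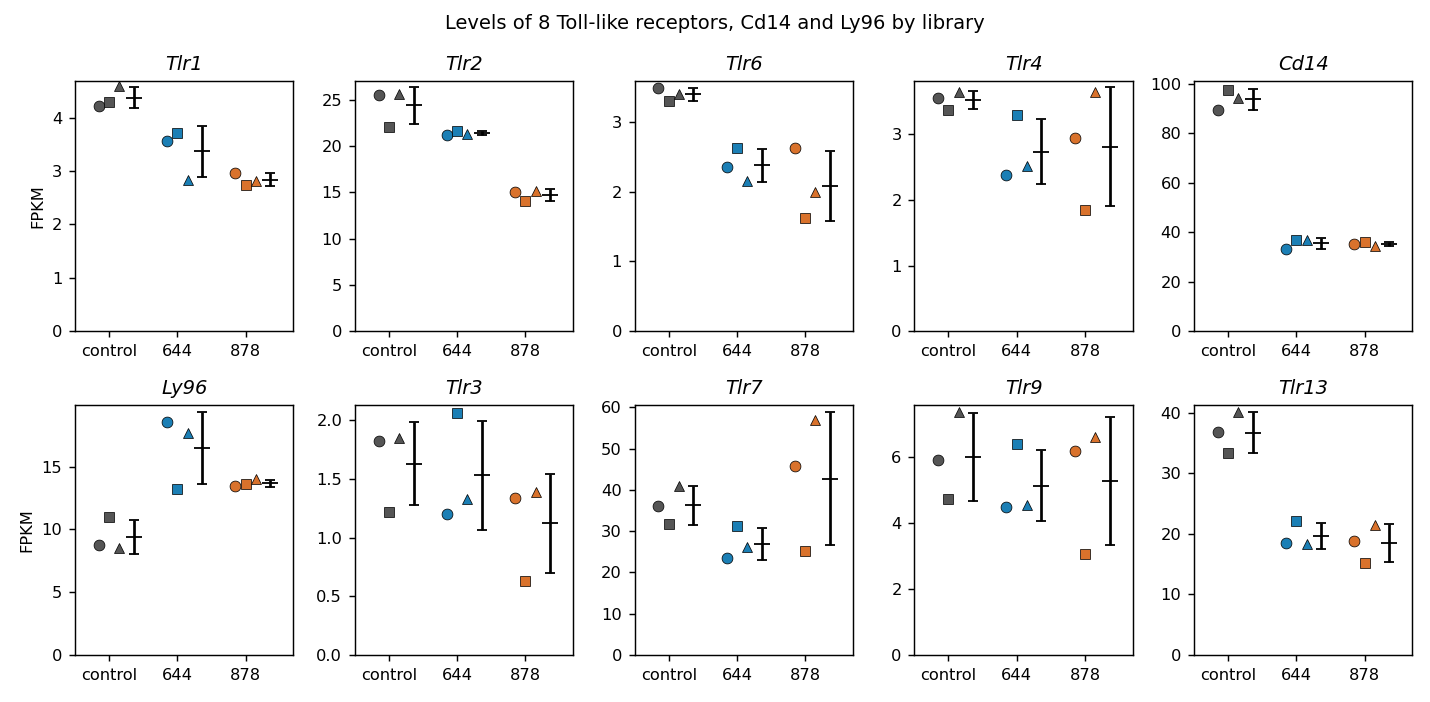
Level of the 10 receptor and co-receptor genes in each library, as the authors' FPKM on linear axes that start at 0, with circles, squares and triangles for replicates 1, 2 and 3 of control, siRNA 644 and siRNA 878, and the group mean with 1 SD beside them. Cd14 and Tlr13 sit lower in all 6 knockdown libraries than in the 3 control libraries, and Ly96 sits higher.

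With 644, 1 of the 10 genes rose (Ly96) and 4 fell (Tlr1, Tlr6, Tlr13 and Cd14) by edgeR's quasi-likelihood test at a Benjamini-Hochberg adjusted p under 0.05 over all tested genes. Among all tested genes 16.6% rose and 15% fell with 644. With 878, 1 rose (Ly96) and 5 fell (Tlr1, Tlr2, Tlr6, Tlr13 and Cd14), against 16% and 15.5% of all genes. The median log2 fold change of the 10 genes was -0.33 with 644 and -0.52 with 878, beside -0.006 and 0.004 over all tested genes. Between the siRNAs 1 of 10 genes differed, Tlr2, where 1.51% of all genes did. The 2 knockdown comparisons share the control libraries, so they are not independent of each other.

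**Figure D2:**
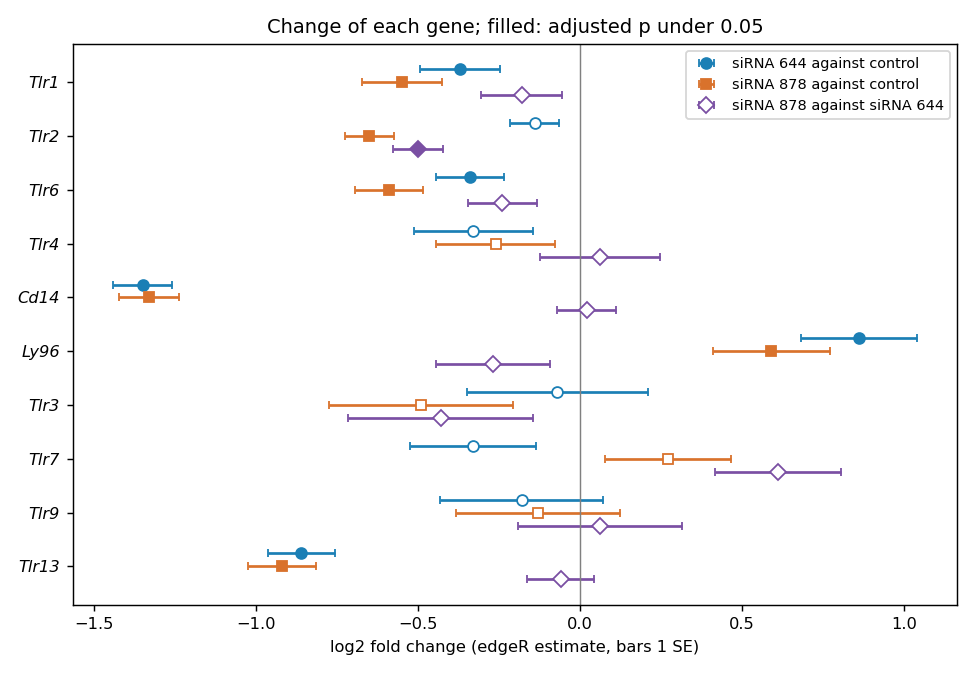
Log2 fold change of each gene for siRNA 644 against control, siRNA 878 against control and siRNA 878 against siRNA 644 (edgeR, bars 1 SE, filled symbols an adjusted p under 0.05, 3 libraries per group). Cd14 lies at -1.35 and -1.33 and Tlr13 at -0.86 and -0.92 against control, Ly96 lies above 0 for both, and Tlr2 is at -0.14 with 644 and -0.65 with 878.

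Of the TLR4 complex, Cd14 fell most of the 10 genes, Ly96 rose and Tlr4 did not pass the test. Cd14, the lipopolysaccharide-binding co-receptor (chromosome 18, 36725064 to 36726815 in the deposited coordinates), was at 138, 156 and 146 CPM in control, 55.2, 57.1 and 60.4 with 644, and 56.2, 64.7 and 54.0 with 878. Every knockdown library was below every control library, and the siRNA groups overlapped. With 644 Cd14 fell by 1.35 in log2 (SE 0.0916, edgeR, adjusted p = 1.74e-05), to 39.2% of control. With 878 it fell by 1.33 (SE 0.0916, edgeR, adjusted p = 2.03e-05), to 39.7%. The difference between the siRNAs was 0.02 (95% interval -0.19 to 0.22, adjusted p = 0.964).

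Ly96 encodes MD-2, the secreted protein that sits in the TLR4 ectodomain and forms the lipid pocket. It was at 4.65, 6.04 and 4.53 CPM in control, 10.7, 7.06 and 9.93 with 644, and 7.34, 8.08 and 7.5 with 878. All 6 knockdown libraries were above the controls, with replicate 2 of 644 the lowest of them. Ly96 rose by 0.86 with 644 (SE 0.180, edgeR, adjusted p = 0.00679) and by 0.59 with 878 (SE 0.181, adjusted p = 0.0357), to 181% and 151% of control. The call with 878 was lost without control replicate 1 (0.53, adjusted p = 0.122), control replicate 3 (0.51, adjusted p = 0.125), 644 replicate 3 (0.59, adjusted p = 0.0546), 878 replicate 1 (0.62, adjusted p = 0.0699) or 878 replicate 3 (0.60, adjusted p = 0.0594), and with the replicate number as a block over all 9 libraries (0.59, adjusted p = 0.0818). With that block fitted to control and 878 alone, a fit chosen after seeing the data, the call held (0.60, adjusted p = 0.0200). In deviations from group means, same-numbered control and 878 libraries correlated at 0.228, 0.729 and 0.601. Each 878 library correlated best with a 644 library of another number (0.702, 0.744 and 0.798), so the pairing behind this fit is uncertain. The siRNAs differed by -0.27 in Ly96, which did not pass the test (95% interval -0.67 to 0.13, adjusted p = 0.550).

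Tlr4 itself, the signalling receptor of the complex (chromosome 4, 66827551 to 66846581), was at 26.7, 26.2 and 27.5 CPM in control, 19.3, 24.9 and 20 with 644, and 22.9, 16.2 and 27.9 with 878. The 644 libraries lay below the controls, but the 878 libraries ran from below to above them. Its log2 fold changes of -0.33 with 644 (SE 0.184, edgeR, adjusted p = 0.210) and -0.26 with 878 (SE 0.184, adjusted p = 0.314) did not pass the test. The 644 value passed without 878 replicate 2 (-0.33, adjusted p = 0.0416), and with only the control and 644 libraries fitted (-0.32, adjusted p = 0.0390).

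The proportions of the 3 mRNAs of the complex are given as ratios, whose size depends on the gene lengths behind the FPKM. The ratio of Cd14 to Tlr4, in FPKM over FPKM, was 25.1, 29.0 and 25.8 in control, 13.9, 11.1 and 14.7 with 644, and 11.9, 19.5 and 9.41 with 878. The ratio of Cd14 to Ly96 was 10.2, 8.89 and 11.1 in control, 1.78, 2.78 and 2.09 with 644, and 2.61, 2.65 and 2.46 with 878. The ratio of Ly96 to Tlr4 was 2.46, 3.26 and 2.32 in control, 7.80, 4.01 and 7.03 with 644, and 4.57, 7.35 and 3.83 with 878. In each of these 3 ratios no knockdown library overlapped a control library.

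**Figure D3:**
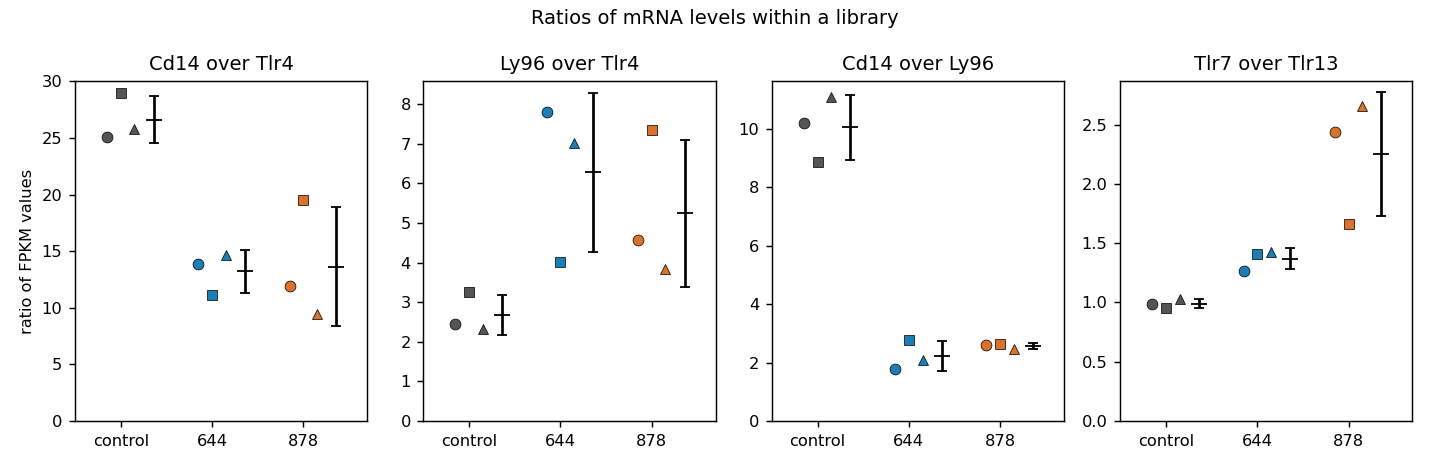
Ratios of the authors' FPKM values within each library on linear axes that start at 0, with circles, squares and triangles for replicates 1, 2 and 3, and the group mean with 1 SD beside them. Cd14 over Ly96 lies at 8.89 to 11.1 in control and at 1.78 to 2.78 in the knockdown libraries.

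Among the receptors for lipopeptides, Tlr2 separated the siRNAs. Tlr2 (chromosome 3, 83836272 to 83841824), the shared partner of both heterodimers, was at 69.0, 61.7 and 69.3 CPM in control, 61.6, 58.6 and 60.7 with 644, and 42.0, 43.9 and 41.7 with 878. The 878 libraries were lowest and close to each other, while the highest 644 library, at 61.6 CPM, reached almost to the lowest control. Tlr2 fell by 0.65 with 878 (SE 0.0758, edgeR, adjusted p = 0.000320), to 63.8% of control, and was at -0.14 with 644 (SE 0.0752, adjusted p = 0.174, 95% interval -0.31 to 0.03). Under offsets for transcript GC content and length, which were added after seeing the data, the 644 value passed (-0.19, adjusted p = 0.0324). The direct test of 878 against 644 gave -0.50 (SE 0.0758, edgeR, adjusted p = 0.0193, 95% interval -0.68 to -0.33). The size of that difference was -0.52 to -0.49 when any 1 library was left out, but its call was lost without control replicate 1 (adjusted p = 0.0542), control replicate 3 (0.05), 644 replicate 1 (0.0938), 2 (0.0704) or 3 (0.117), or 878 replicate 1 (0.109) or 3 (0.0706). It was also lost with only the siRNA libraries fitted (adjusted p = 0.120) and with the replicate number as a block (adjusted p = 0.110).

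Tlr1, the partner for triacylated lipopeptides, was at 11.1, 11.8 and 12.3 CPM in control, 9.92, 9.73 and 7.60 with 644, and 8.37, 8.02 and 7.60 with 878. Tlr6, the partner for diacylated lipopeptides, was at 10.7, 10.6 and 9.78 CPM in control, 8.24, 8.10 and 8.12 with 644, and 7.60, 6.55 and 6.49 with 878. For both genes all 6 knockdown libraries were below the 3 controls. Tlr1 fell by 0.55 with 878 (SE 0.124, edgeR, adjusted p = 0.00951) and Tlr6 by 0.59 (SE 0.105, adjusted p = 0.00302). With 644, Tlr1 fell by 0.37 (SE 0.123, adjusted p = 0.0489) and Tlr6 by 0.34 (SE 0.104, adjusted p = 0.0345), but the call was lost in 14 of 20 alternatives for Tlr1 and 11 for Tlr6. Leaving out any 1 control or 644 library lost both (Tlr1 -0.44 to -0.26, adjusted p = 0.0629 to 0.160, and Tlr6 -0.38 to -0.32, adjusted p = 0.0625 to 0.115), as did the replicate number as a block (Tlr1 -0.38, adjusted p = 0.0877, and Tlr6 -0.34, adjusted p = 0.0723). For Tlr1 it was also lost without 878 replicate 1 (-0.37, adjusted p = 0.0710) or 3 (-0.37, adjusted p = 0.0553).

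Tlr1 and Tlr6 are neighbours on chromosome 5, at 64924680 to 64933600 and 64952030 to 64970942, and resemble each other in sequence. Of the 50-base words in GENCODE transcripts, 15.4% of those of Tlr1 and 12.3% of those of Tlr6 occurred in any other gene. The gene that shared the most words was Tlr6 for Tlr1, and Tlr1 for Tlr6. Their estimated counts were not whole numbers in 9 of 9 libraries, and nor were 37.4% of the non-zero counts over all genes. The way reads were split between Tlr1 and Tlr6 is uncertain, and non-whole counts alone do not show such a split. The counts of Tlr7 were not whole in 9 of 9 libraries either, although 0% of its words occurred in another gene. The sum of Tlr1 and Tlr6, chosen after seeing the data, was 21.8, 22.3 and 22.1 CPM in control, 18.2, 17.8 and 15.7 with 644, and 16.0, 14.6 and 14.1 with 878. The sum fell by 0.36 with 644 (SE 0.0939, edgeR, adjusted p = 0.0197) and by 0.57 with 878 (SE 0.0945, adjusted p = 0.00203). By construction it cannot change with the way reads are divided between the genes. It is given for the main settings only, and its calls with a library left out are not given.

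The RefSeq table used holds 8 promoter sequences for 6 of the 10 genes. The 4 below belong to genes that fell with at least 1 siRNA. Tlr1 and Tlr6 have a second promoter each (chr5:64932650-64932949 and chr5:64959999-64960298, minus strand), which held 0 matches to any motif searched, and the window with a match is the one printed. Each runs 5′ to 3′ from 250 bases before to 50 after a transcript start in GRCm38.p6. Capitals mark matches on either strand to GAGGAA (the core bound by PU.1, a factor of the myeloid lineage), GAAANNGAA (an interferon-response-like element) or the NF-kB site.
Tlr2 (chr3:83841559-83841858, minus strand): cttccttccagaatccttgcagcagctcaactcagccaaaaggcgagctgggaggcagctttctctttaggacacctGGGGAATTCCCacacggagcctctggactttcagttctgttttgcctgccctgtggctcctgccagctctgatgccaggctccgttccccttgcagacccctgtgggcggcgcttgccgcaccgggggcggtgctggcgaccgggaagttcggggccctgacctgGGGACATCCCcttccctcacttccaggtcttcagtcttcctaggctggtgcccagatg
Tlr1 (chr5:64933509-64933808, minus strand): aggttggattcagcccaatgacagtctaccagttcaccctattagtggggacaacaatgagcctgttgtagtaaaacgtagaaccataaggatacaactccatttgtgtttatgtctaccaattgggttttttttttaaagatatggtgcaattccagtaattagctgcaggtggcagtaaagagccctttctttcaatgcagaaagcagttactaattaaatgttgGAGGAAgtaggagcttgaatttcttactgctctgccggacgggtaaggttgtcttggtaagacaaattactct
Tlr6 (chr5:64959117-64959416, minus strand): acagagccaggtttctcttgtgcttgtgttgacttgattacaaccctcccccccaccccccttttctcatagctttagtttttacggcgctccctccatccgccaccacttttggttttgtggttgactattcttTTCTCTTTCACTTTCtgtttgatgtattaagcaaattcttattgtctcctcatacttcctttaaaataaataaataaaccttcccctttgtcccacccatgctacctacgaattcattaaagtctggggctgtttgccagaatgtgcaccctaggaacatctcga
Tlr13 (chrX:106143025-106143324, plus strand): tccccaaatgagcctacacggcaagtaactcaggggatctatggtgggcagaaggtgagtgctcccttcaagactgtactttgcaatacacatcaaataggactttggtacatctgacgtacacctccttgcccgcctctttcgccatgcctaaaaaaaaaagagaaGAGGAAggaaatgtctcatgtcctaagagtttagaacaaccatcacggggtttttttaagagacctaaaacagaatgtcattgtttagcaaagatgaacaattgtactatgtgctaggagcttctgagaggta

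The Tlr2 promoter held NF-kB matches that overlapped at 173 and 172 bases before the start and another 8 bases before it. The printed Tlr6 window held overlapping interferon-response-like matches at 115 and 109 bases before the start, both on the opposite strand. The printed Tlr1 window and the Tlr13 promoter each held a PU.1 core, at 23 and 83 bases before the start. Of the genes not called in the main fit, Tlr9 held PU.1 cores 112 bases before and 12 after its start, and Tlr3 an NF-kB match 211 bases before. Over 32851 mouse promoters of this length, 28.3% held the PU.1 core, 8.60% the interferon-response-like element and 8.50% the NF-kB site. These matches describe the letters only, and binding was not measured.

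Among the endosomal receptors, Tlr13 fell and the other 3 did not pass the test. Tlr13, which binds bacterial 23S ribosomal RNA in mice (chromosome X, 106143275 to 106160493), was at 140, 131 and 153 CPM in control, 75.8, 84.3 and 73.2 with 644, and 74.1, 67.0 and 83.1 with 878. All knockdown libraries were far below all controls, and the siRNA groups overlapped. Tlr13 fell by 0.86 with 644 (SE 0.103, edgeR, adjusted p = 0.000377) and by 0.92 with 878 (SE 0.104, adjusted p = 0.000273), to 55% and 52.9% of control.

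Tlr7, the receptor for single-stranded RNA, also lies on chromosome X (167303380 to 167330574) and had a level close to that of Tlr13 in control. It was at 145, 134 and 166 CPM in control, 108, 129 and 116 with 644, and 187, 124 and 227 with 878. The 644 libraries were below the controls, and of the 878 libraries 2 were above every control and replicate 2 below them. The log2 fold changes of -0.33 with 644 (SE 0.194, edgeR, adjusted p = 0.220), 0.27 with 878 (SE 0.194, adjusted p = 0.323) and 0.61 for 878 over 644 (SE 0.195, adjusted p = 0.174, 95% interval 0.17 to 1.05) did not pass. Without 878 replicate 2 Tlr7 passed in all 3 comparisons, at -0.34 (adjusted p = 0.0246), 0.49 (adjusted p = 0.00833) and 0.82 (adjusted p = 0.00419). The library left out there had the lowest Nus1 of its group, 3.73 CPM against 8.01 and 8.35. With only the control and 644 libraries fitted the 644 value passed too (-0.33, adjusted p = 0.0221). Under the GC and length offsets Tlr7 was at 0.39 with 878 (adjusted p = 0.00388) and 0.53 for 878 over 644 (adjusted p = 0.00601). The ratio of Tlr7 to Tlr13 in FPKM was 0.986, 0.952 and 1.03 in control, 1.27, 1.41 and 1.43 with 644, and 2.44, 1.66 and 2.66 with 878, and the 3 groups did not overlap.

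Tlr9, the receptor for unmethylated CpG DNA, was at 19.5, 16.1 and 24.3 CPM in control, 15.9, 21.0 and 15.7 with 644, and 21.1, 11.6 and 22.1 with 878. Its log2 fold changes of -0.18 with 644 (SE 0.252, edgeR, adjusted p = 0.604) and -0.13 with 878 (SE 0.252, adjusted p = 0.740) did not pass. Tlr3, the receptor for double-stranded RNA, was at 7.39, 5.11 and 7.66 CPM in control, 5.25, 8.35 and 5.64 with 644, and 5.55, 2.99 and 5.73 with 878. The groups overlapped for both genes. The log2 fold changes of Tlr3 were -0.07 with 644 (SE 0.279, edgeR, adjusted p = 0.876) and -0.49 with 878 (SE 0.284, adjusted p = 0.222). With the replicate number as a block in control and 878 alone, a fit chosen after seeing the data, Tlr3 with 878 passed (-0.52, adjusted p = 0.0394). The 95% intervals were wide, from -0.76 to 0.39 for Tlr9 and -0.70 to 0.56 for Tlr3 with 644, so changes of that size were not detectable at this spread. The sign of Tlr3 with 644 turned with 1 library left out (-0.30 to 0.06).

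Within groups, Tlr4 and the endosomal receptors tended to be low or high in the same library. In 878 replicate 2, the library with the lowest factor, Tlr3, Tlr4, Tlr7, Tlr9 and Tlr13 were all at their lowest of the 878 libraries, and Tlr2, Cd14 and Ly96 at their highest. In control replicate 2, the lowest factor of the controls at 1.008, Tlr2, Tlr3, Tlr4, Tlr7, Tlr9 and Tlr13 were lowest and Cd14 and Ly96 highest. The same 5 receptors were highest in 644 replicate 2 and 878 replicate 3, the libraries of those groups with the highest factor. The relation to the factor was not the same in every group. In control replicate 1, the highest factor of the controls, 1 of the 10 genes, Tlr6, was highest, and in 644 replicate 1, the lowest of that group, Tlr3, Tlr4, Tlr7 and also Cd14 were lowest, while Tlr9 and Tlr13 were lowest in replicate 3. The coefficient of variation over the 878 libraries was 32.2% for Tlr3, 31.5% for Tlr9, 28.9% for Tlr7 and 26.3% for Tlr4, against 2.83% for Tlr2 and 4.84% for Tlr1. The part of library composition in these differences was not tested.

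**Figure D4:**
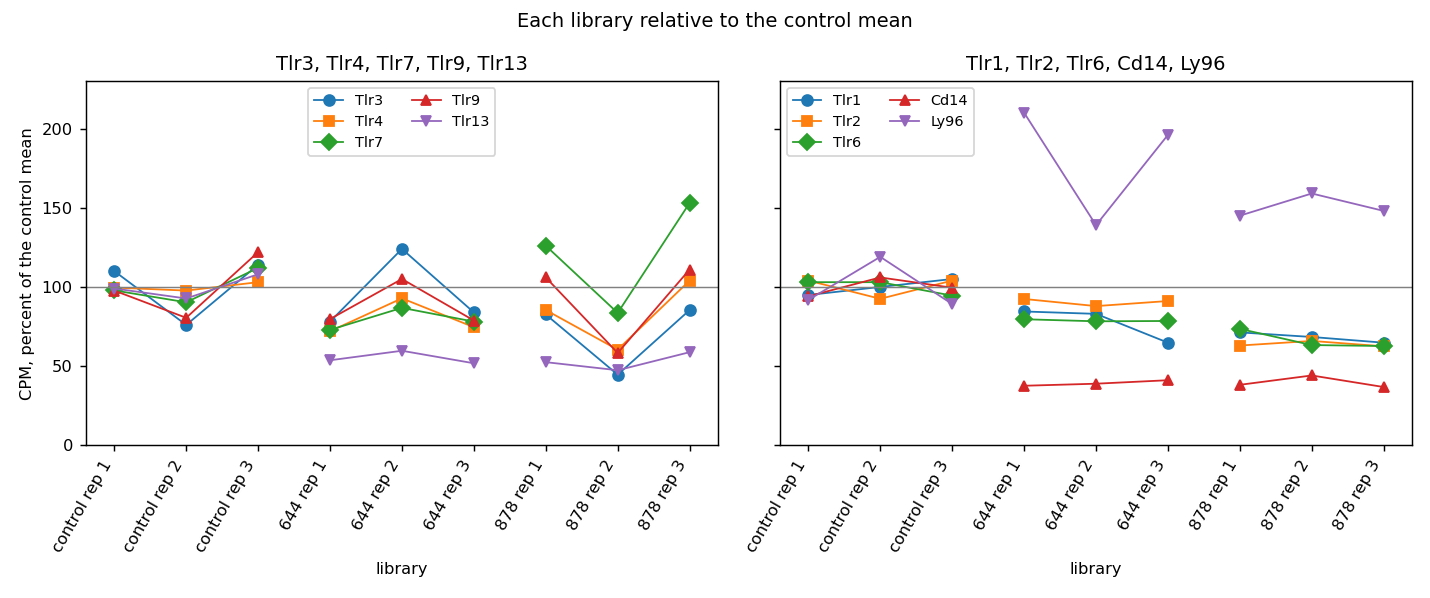
CPM of each gene in every library as a percent of the control mean, for Tlr3, Tlr4, Tlr7, Tlr9 and Tlr13 on the left and Tlr1, Tlr2, Tlr6, Cd14 and Ly96 on the right; lines join the libraries of a group only to guide the eye. Cd14 lies at 36.8% to 44.1% in the 6 knockdown libraries, Ly96 at 139% to 210%, and Tlr7 with 878 spans 83.6% to 153%.

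The order of levels changed in the knockdown groups. With 644 the FPKM order was Cd14 (35.6 ± 2.23, SD, n = 3), Tlr7 (26.9 ± 3.89), Tlr2 (21.4 ± 0.235), Tlr13 (19.6 ± 2.15) and Ly96 (16.5 ± 2.86), where Tlr2, Tlr13 and Ly96 overlapped as neighbours. With 878 it was Tlr7 (42.7 ± 16.2, overlapping Cd14), Cd14 (35.1 ± 0.853), Tlr13 (18.5 ± 3.16, overlapping Tlr2), Tlr2 (14.8 ± 0.640) and Ly96 (13.7 ± 0.277). Tlr9, Tlr1, Tlr4, Tlr6 and Tlr3 followed in that order in both, with Tlr3 lowest at 1.53 ± 0.464 and 1.12 ± 0.425. The summed FPKM of the surface receptors Tlr1, Tlr2, Tlr4 and Tlr6 was 35.7 ± 2.29 in control, 29.9 ± 1.27 with 644 and 22.5 ± 1.96 with 878. That of the endosomal receptors was 80.6 ± 9.71, 53.2 ± 7.47 and 67.6 ± 21.6.

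In the authors' deposited table, which gives DESeq2 q-values, 1 of the 10 genes rose and 4 fell with 644, and 1 rose and 5 fell with 878. The share of all genes called at those q-values was not counted here, so these numbers have no background beside them. The 4 that fell with 644 there were Tlr4 (-0.33, q = 0.0370), Tlr7 (-0.34, q = 0.00962), Tlr13 and Cd14. Tlr1 (q = 0.0558) and Tlr6 (q = 0.0544) missed a q of 0.05 in the authors' deposited table. It also listed Tlr2 lower with 878 than with 644 (-0.49, q = 4.74e-05).

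The genes whose pattern over the 9 libraries was closest to a member were found by the root mean square difference in log2(CPM + 1), each gene set against its control mean, among 8853 genes. For Cd14 these were Cenpa (0.0469), a centromeric histone, H2-T24 (0.0673) and the interferon-induced Ifitm3 (0.0931). For Tlr13 they were the kinesin Kif18b (0.0818), the mRNA decay factor Zfp36l1 (0.0889) and Kansl1l (0.0891). For Ly96 they were Plp2 (0.117), Lyrm4 (0.118) and Nfu1 (0.119), and for Tlr6 they were Ssh1 (0.0592), Evi2b (0.0614) and Znhit3 (0.0643).

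Genes of the machinery around the receptors are read against the shares of all tested genes given above, 16.6% up and 15% down with 644 and 16% and 15.5% with 878. Of 12 genes for folding and trafficking of Toll-like receptors, 3 rose and 2 fell with 644 (median 0) and 4 rose and 2 fell with 878 (median 0.16). The count called fell to 3 without control replicate 1 with either siRNA, and with 878 also without control replicate 3. Hsp90b1, the endoplasmic reticulum chaperone gp96 that folds most of these receptors, rose by 1.56 with 644 (SE 0.113, edgeR, adjusted p = 2.43e-05) and by 1.64 with 878 (SE 0.114, adjusted p = 2.04e-05), from 767 to 863 CPM in control to 2130 to 2800 in the knockdown libraries. Its co-chaperone Cnpy3 was at 0.13 (adjusted p = 0.617) and 0.43 (adjusted p = 0.0992), which did not pass. Unc93b1, which escorts the nucleic acid receptors to endosomes, rose by 0.40 (adjusted p = 0.0107) and 0.37 (adjusted p = 0.0146). That call was lost without control replicate 1 (0.36, adjusted p = 0.0530, and 0.34, adjusted p = 0.0662), with 878 without control replicate 3 (0.35, adjusted p = 0.0602), with 644 under the GC and length offsets alone (0.17, adjusted p = 0.1) or with the block (0.17, adjusted p = 0.158), and with 878 under block and offsets together (0.22, adjusted p = 0.0782). Rab7b, a GTPase of late endosomes, fell by 1.33 and 1.12, and Slc15a3, an endolysosomal transporter of histidine and bacterial peptides, by 1.16 and 1.30.

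Of 11 endosomal proteases and nucleases, which trim the receptors or their ligands, 6 rose and 2 fell with 644 (median 0.33) and 5 rose and 2 fell with 878 (median 0.25). The exonuclease Pld4 rose by 0.82 with 644 and 0.67 with 878, and Ctsk, a cathepsin, by 0.33 and 0.61. The 644 call of Ctsk was lost without control replicate 1 or 2 or 644 replicate 1 or 2 (0.27 to 0.33, adjusted p = 0.0520 to 0.0887). The convertase Furin fell by 0.69 and 0.72, and the protease Ctss by 0.58 and 0.51. Of the 8 calls with 644, 5 were left without control replicate 1, 2 or 3 and 4 without 644 replicate 1. The lysosomal nuclease Rnaset2a rose by 0.72 and 0.74, with reads that a near-identical copy, Rnaset2b, may share. With 644 that call was lost without control replicate 1 (0.65, adjusted p = 0.0687), control replicate 3 (0.71, adjusted p = 0.0571), 644 replicate 1 (0.59, adjusted p = 0.0630) or 644 replicate 3 (0.72, adjusted p = 0.0516), and with 878 without control replicate 1 (0.66, adjusted p = 0.0612) or 3 (0.73, adjusted p = 0.0523).

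Of 25 adaptors and kinases, 5 rose and 1 fell with 644 (median -0.05), and 2 rose and 4 fell with 878 (median -0.01). The 6 calls with 644 became 2 without control replicate 1, 3 without control replicate 3, 644 replicate 1 or 3 or 878 replicate 1, and 11 without 878 replicate 2. Ticam2, the bridging adaptor of TLR4 in endosomes, rose by 1.21 with 644 (SE 0.160, edgeR, adjusted p = 0.000663) and by 1.10 with 878 (SE 0.160, adjusted p = 0.000990). Its partner Ticam1 rose by 0.54 with 644, a call lost without control replicate 1 (0.48, adjusted p = 0.0546). Myd88 rose by 0.36 with 878 (adjusted p = 0.0151), lost without control replicate 1 (0.35, adjusted p = 0.0584), and by 0.27 with 644 (adjusted p = 0.0476). The latter was lost in 10 of 20 alternatives, among them leaving out any control library, 644 replicate 1 or 3 or 878 replicate 1 (0.21 to 0.28, adjusted p = 0.0655 to 0.170). Ikbke, a kinase for interferon factors, and the adaptor Pik3ap1 each fell by 0.74 with 878. The ubiquitin-conjugating enzyme Ube2n fell by 0.35 with 644 and 0.32 with 878, and both calls were lost under the GC and length offsets (-0.15, adjusted p = 0.365, and -0.15, adjusted p = 0.359). Sarm1 rose by 0.88 with 644 and Irak2 fell by 0.56 with 878, with calls lost in 8 and 14 alternatives. Sarm1 was lost without control replicate 1 or 3, 644 replicate 1 or 3 or 878 replicate 1 (0.63 to 1.02, adjusted p = 0.0517 to 0.120). Irak2 was lost without any 1 control library, 644 replicate 1 or 3 or 878 replicate 1 or 2 (-0.62 to -0.38, adjusted p = 0.0559 to 0.130). Ripk1 was the 1 gene of this list that differed between the siRNAs (-0.44, adjusted p = 0.0451, lost in 15 alternatives). It was lost without any 1 library except 878 replicate 2 (-0.48 to -0.43, adjusted p = 0.0906 to 0.180).

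Of 16 negative regulators, 3 rose and 2 fell with 644 (median 0.06), and 0 rose and 6 fell with 878 (median -0.09). With 644 the 5 calls became 3 without control replicate 1 or 644 replicate 1. With 878 the 6 became 3 without any 1 control library, 644 replicate 3 or 878 replicate 1. Nfkbia, the NF-kB inhibitor, fell by 0.65 with 878 (SE 0.0798, edgeR, adjusted p = 0.000428) and was lower with 878 than with 644 (-0.79, SE 0.0799, adjusted p = 0.00451). Dusp1, a phosphatase of MAP kinases, rose by 0.91 with 644 (adjusted p = 0.0104) and fell by 0.94 with 878 (adjusted p = 0.0117), a difference of -1.85 (adjusted p = 0.00824) that was not called without 878 replicate 1 (-1.79, adjusted p = 0.0592) or with the replicate number as a block (-1.85, adjusted p = 0.0633). With only the siRNA groups fitted neither the Dusp1 difference (-1.84, adjusted p = 0.0819) nor that of Nfkbia (-0.78, adjusted p = 0.0760) was called. Inpp5d, a lipid phosphatase, fell by 0.49 and 0.58, and Atf3, a stress-induced repressor, rose by 0.62 with 644. Sigirr rose by 0.63 with 644 and Tnfaip3 fell by 1.35 with 878, with calls lost in 8 and 6 of 20 alternatives. Sigirr was lost without control replicate 1 or 3, any 644 library or 878 replicate 1 (0.54 to 0.70, adjusted p = 0.0518 to 0.137), and Tnfaip3 without any 1 control library, 644 replicate 3 or 878 replicate 1 (-1.53 to -1.19, adjusted p = 0.0592 to 0.117).

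Of 10 transcription factors of the pathway, 1 rose and 4 fell with 644 (median -0.22), and 1 rose and 3 fell with 878 (median -0.33). Irf7, the interferon factor downstream of TLR7 and TLR9, was at 418, 541 and 447 CPM in control, 149, 111 and 158 with 644, and 88.0, 165 and 91.6 with 878. It fell by 1.75 with 644 (SE 0.251, edgeR, adjusted p = 0.00101) and by 2.03 with 878 (SE 0.253, adjusted p = 0.000451). Fos fell by 1.24 and 1.65, and Irf5 fell by 0.30 and 0.57. Rela, the NF-kB subunit p65, rose by 0.53 and 0.39. Irf8, a factor of the myeloid lineage, fell by 0.41 with 644 (adjusted p = 0.0197), a call lost without control replicate 1 (adjusted p = 0.0609) or 2 (0.0530) or 644 replicate 2 (0.0653) or 3 (0.0626), and was at -0.30 with 878 (adjusted p = 0.0658).

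Of 16 tested genes of other pattern-recognition families, the adaptor Mavs among them, 1 rose and 8 fell with 644 (median -0.34). With 878, 1 rose and 9 fell (median -0.59). Dhx58, Ddx58 and Ifih1, the cytosolic sensors of viral RNA, fell by 1.41, 1.15 and 1.41 with 644 and by 1.45, 1.29 and 1.10 with 878. The value of Ifih1 with 878 lost its call without control replicate 1 (-1.01, adjusted p = 0.0550). Nod1, a cytosolic sensor of peptidoglycan, fell by 1.31 and 1.36. In the Toll-like receptor family itself, 3 accessory genes that could be tested, Cd180, Cd36 and Ly86, gave 0 calls with either siRNA by edgeR. Without 878 replicate 2 there were 2 calls with each siRNA, and without 878 replicate 3 there was 1 with 644.

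Of 11 tested inducible targets of Toll-like receptor signalling, 2 rose and 6 fell with 644 (median -0.68), and 3 rose and 7 fell with 878 (median -0.55). The co-stimulatory receptor Cd40 rose by 2.30 with 644 (SE 0.174, edgeR, adjusted p = 3.28e-05) and by 2.07 with 878 (SE 0.174, adjusted p = 6.09e-05). Nos2, the inducible nitric oxide synthase, fell by 1.46 with 644 and 1.24 with 878, and the chemokine Ccl5 by 1.16 and 1.51. Nos2 held only 35 to 38 counts per control library, 11 to 13 with 644 and 10 to 20 with 878. Its change was as small as -0.32 and -0.31 among the alternatives. The 644 call of Ccl5 was lost without control replicate 2 (-1.08, adjusted p = 0.0540) or 644 replicate 1 (-1.15, adjusted p = 0.0624). The cytokine Il6 was called higher with both, on 1 to 2 counts per control library, 15 to 22 with 644 and 8 to 28 with 878. Among the alternatives the rise of Il6 was as small as 0.74 with 644 and 0.78 with 878. Il1b held 28, 21 and 21 counts in control, 1 to 2 with 644 and 1, 0 and 12 with 878, and was called lower with both. Its call with 878 was lost in 8 of 20 alternatives, among them leaving out any control library, 644 replicate 1 or 3 or 878 replicate 1 (-2.36 to -1.82, adjusted p = 0.0525 to 0.102).

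**Figure D5:**
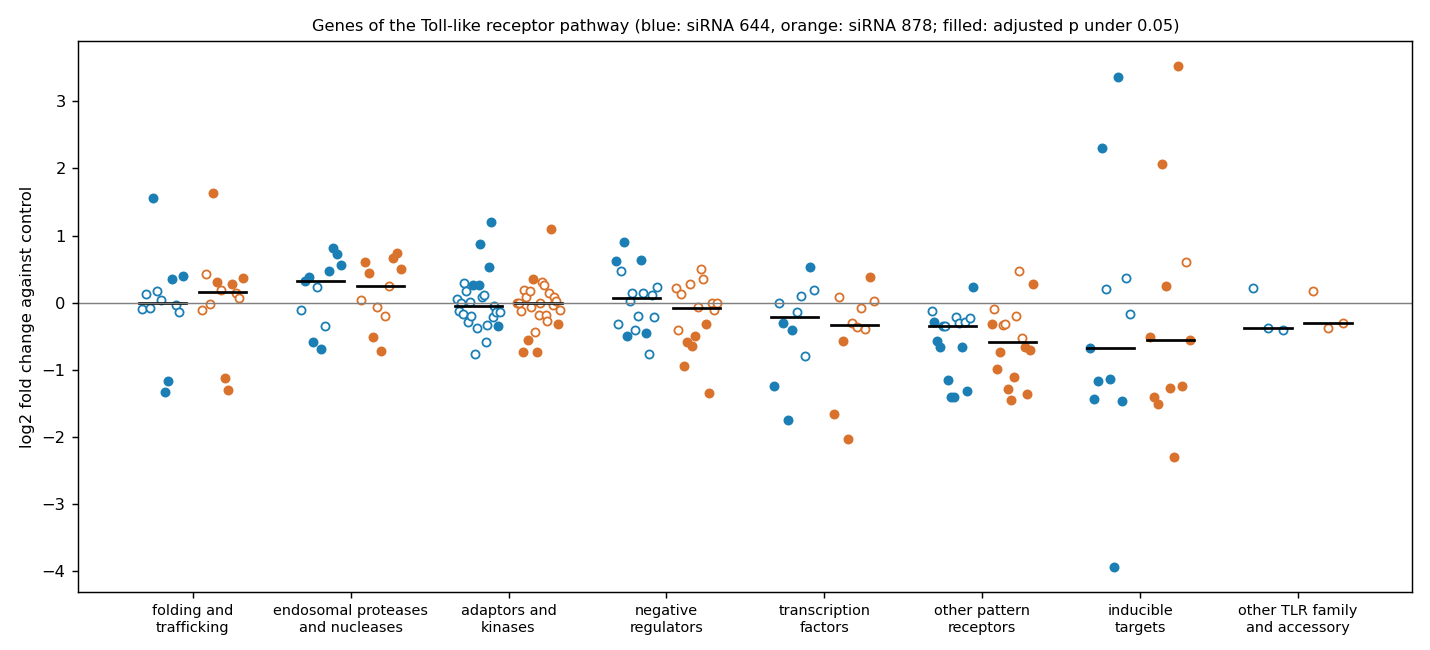
Log2 fold change against control (edgeR) of each tested gene in 8 lists of the pathway, blue for siRNA 644 and orange for siRNA 878, with filled circles for an adjusted p under 0.05 and a line at the median of each list. Other pattern receptors and inducible targets lie mostly below 0, with medians of -0.34 and -0.68 for 644, while Cd40 and Il6 stand above 2 among the targets.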

How the data were processed

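RNA from 9 BV2 cultures was sequenced after an mRNA library kit, and samples were grouped by title, 3 per group. The deposited table gave estimated counts per gene, FPKM made by the authors, and, from the authors' own DESeq2 run, log2 fold changes with q-values. Bowtie2 2.4.5, DESeq2 1.34.0 and mm39 are named in the submitters' processing notes. The counting tool is not given in the sources used here. Of gene positions, 73.7% equal those of RefSeq GRCm38.p6, so positions are quoted as deposited. Promoters are RefSeq GRCm38.p6. Not used were 9 TPM columns, 9 group averages and 3 p-value columns. One line of the table was not analysed here.

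Estimated counts were rounded. Genes passed edgeR's filterByExpr (count minimum 10, total minimum 15), and at least 99.96% of counts stayed. Groups were compared in R 4.3.3 by the quasi-likelihood test of edgeR 4.0.16 with TMM factors over all 9 libraries, group as the only term, Benjamini-Hochberg adjusted over 11739 genes and called under 0.05. The biological coefficient of variation was 14.9%. Intervals of log2 fold changes are at 95% from the test's degrees of freedom. The script was tested on simulated data. The members and gene lists were chosen with earlier results of these data known. All 10 members were named, plus up to 4 called genes per list and comparison by size of change, and Hsp90b1, Cnpy3, Unc93b1, Myd88, Irf7, Irf8 and Nus1. A named gene that was called with the other siRNA too has both values. For 4 members the 3 most similar genes with a mean of at least 10 CPM were named.

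Alternatives were DESeq2 1.42.0, RLE factors, library sizes alone, no filter on low counts, a filter of 1 CPM in 3 samples, a replicate-number block, fits restricted to the groups compared, limma 3.58.1 on log2(FPKM) with pseudocounts of 1 and 0.1, and each library left out in turn. Replicate numbers in the titles were checked for pairing by correlating deviations from group means: same-numbered control and 878 libraries gave 0.228, 0.729 and 0.601, and pairs with 644 were all negative. Offsets for GC content and length, alone and with the block, the sum of Tlr1 and Tlr6, and the block in control and 878 alone were chosen after seeing the data.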

Additional observations from a re-analysis of the deposited data

Results flagged for a closer look

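Tlr2 was the 1 gene of the 10 whose effect differed between the siRNAs by a direct test: the log2 difference of 878 over 644 was -0.50 (edgeR, adjusted p = 0.0193), with all 3 libraries of 878 below all 3 of 644. That call was lost in 9 of 20 alternatives. The CPM of Tlr6 also separated the 878 from the 644 libraries, but its difference of -0.24 did not pass (edgeR, adjusted p = 0.324).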

How the results depend on the processing

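Of the 20 alternatives, 18 were planned and 2 added after seeing the data. Cd14 and Tlr13 with both siRNAs, Ly96 with 644, and Tlr1, Tlr2 and Tlr6 with 878 kept direction and call in all 20. With 644, 5 of the 10 genes were called. The count was 3 with no filter on low counts, with limma on log2(FPKM + 0.1) and with the block plus GC and length offsets, and 3 to 7 with 1 library left out. With 878 it was 6, and 5 to 7 with 1 library left out. Between the siRNAs it was 1, and 0 with only those groups fitted, 2 with the offsets, with or without the block, and 0 to 2 with 1 library left out. Same-numbered libraries of control and 878 correlated at 0.228, 0.729 and 0.601 and those with 644 at -0.834 to -0.172, and 2 of 9 libraries correlated best with their own number. With the replicate number as a block over all 9 libraries the counts were 3, 5 and 0. With the block in control and 878 alone, a further fit added after seeing the data, 7 genes were called, Tlr3 being added and no other call of the 10 changed. Over all genes that fit called 4371, where the main fit called 1881 up and 1815 down. The all-gene counts of the other settings are not given here. The sign turned for 6 small values that had no call, and the cause was not tested. Tlr3 with 644 was 0.15 with the offsets, 0.16 with block and offsets, and -0.30 to 0.06 with 1 library left out. Tlr9 with 878 was -0.29 to 0.12 with 1 library left out. For 878 over 644, values with 1 library left out were -0.13 to 0.26 for Tlr4, -0.10 to 0.31 for Tlr9, -0.14 to 0.03 for Tlr13 and -0.05 to 0.07 for Cd14. Tlr4 there was -0.01 with the offsets and with block and offsets, Tlr9 was -0.01 and -0.02 with limma at pseudocounts of 1 and 0.1, and Cd14 was -0.02 with library sizes alone and -0.02 with limma at both pseudocounts. The count of called negative regulators with 878 was 3 with the block over all 9 libraries and 6 in control and 878 alone. The order of levels by FPKM was the same on log2 scales, which keep the order within each library. The gene lengths behind that order were not varied. Spread and depth limit Tlr3, which held 53 to 169 counts per library.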
